A study of Mus musculus with 9 samples.

Results

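The 9 mammary tumor libraries of the series differed in how many of their sequenced fragments could not be placed on the mouse genome, and they were sorted by that share into 5 libraries with a high and 4 with a low unmapped share. The share was the number of unmapped fragments over all fragments of a library, including those mapped to several places, to no annotated gene or to more than 1 gene. Libraries at or above 19.75% were taken as high (WT 2, WT 4, KO 2, KO 4 and KO 5) and those under it as low (WT 1, WT 3, KO 1 and KO 3), so all 9 of 9 libraries were used. The 2 classes were thus chosen by the measured unmapped shares, which are given as a description only. Among the low libraries they were 10.99% in KO 3, 12.22% in WT 1, 15.23% in WT 3 and 19.7% in KO 1. Among the high libraries they were 19.81% in KO 2, 20.43% in KO 5, 21.07% in WT 2, 21.81% in KO 4 and 27.13% in WT 4. KO 1 and KO 2, just outside and just inside the threshold, lay only 0.111 percentage points apart, and the class means lay 7.52 points apart. The exact binomial 95% interval of a share reached at most 0.0212 points to either side, which covers counting error only. KO 3 and WT 1 stood lowest and WT 4 highest, so results that rest on these libraries are also given without them.

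All tumors came from female C57BL/6 MUC1.Tg MMTV-PyMT (MMT) mice, whose oncogene, polyoma middle T, is expressed chiefly in mammary epithelium from the promoter of mouse mammary tumor virus, and which also carry a human MUC1 transgene. WT tumors were Hspa1a/Hspa1b+/+ and came at 122, 132, 124 and 124 days of age for WT 1 to WT 4. KO tumors were Hspa1a/Hspa1b-/-, without the paired genes for the stress-inducible chaperone HSP72, and came at 122, 123, 120, 125 and 120 days for KO 1 to KO 5. The high class held 2 WT and 3 KO libraries and the low class 2 of each, so genotype was a second term in every test across genes. Each tumor was minced and digested with collagenase and trypsin before RNA was extracted, and ribosomal RNA was depleted before stranded libraries were made. No animal is named in the labels, so the spread behind every p-value is that among these 9 samples and may in part be technical.

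As background, a fragment stays unmapped when it is too short after trimming, is of poor quality, carries adapter, or comes from a sequence that the reference does not hold. Libraries from total RNA also contain fragments of unspliced transcripts, which fall in introns and are not counted on genes, and mitochondrial transcripts, which are abundant and made outside the nucleus. The content of guanine and cytosine (GC) of a transcript affects how well its fragments are amplified and sequenced. Which of these set the unmapped share of a library here was not tested, since the unmapped reads themselves were not used.

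Depth ran from 11500000 to 19140000 fragments in a library, with 4410000 to 6221000 of them on genes. Levels are given as CPM, counts scaled to a library's total over the genes tested times its TMM factor. Where a library had no count of a gene, up to about 0.482 to 0.68 CPM remained possible (3 counts of that library, for counting error alone). This limit was taken over all gene counts of a library without the TMM factor, so it is approximate on the CPM scale used here. Hspa1b, read as a check of the genotype labels, stood at 62.8, 81.1, 28.7 and 47.4 CPM in WT 1 to WT 4. In KO it stood at 0.197, 0.163 and 0.657 CPM in KO 1 to KO 3, and had 0 counts in KO 4 and KO 5. Hspa1a, its near-identical neighbour, stood at 3.99 to 9.77 CPM in WT and 0.163 to 1.64 CPM in KO. The PyMT row was read at 7290 to 12000 CPM in the low and 7320 to 15400 CPM in the high libraries, which overlapped. The luminal epithelial markers Epcam and Gata3 were present in all 9 libraries, at 628 to 1470 and 258 to 496 CPM.

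Fragments that did map were distributed differently over the libraries. Fragments mapped to several places made up 6.173% of mapped fragments in KO 3, 6.469% in WT 1, 7.128% in WT 3 and 8.485% in KO 1. In the high libraries they made up 8.352% in WT 2, 8.568% in KO 2, 8.782% in KO 4, 9.486% in KO 5 and 13.08% in WT 4. WT 4 thus stood far above the other high libraries, and KO 1 overlapped the high class. The difference between high and low, averaged over the 2 genotypes, was 2.77 points (exact permutation of the class within genotype, two-sided p = 0.0167, the smallest that 60 assignments allow; adjusted p = 0.0601 over 18 values). It was 1.58 points without WT 4. The multimapped share went with the unmapped share over all 9 libraries (r = 0.926, exact permutation p = 0.00024, adjusted p = 0.00048 over 4 relations). The rank correlation was 0.867 (exact permutation p = 0.00451, adjusted p = 0.00601). Without WT 1 and KO 3, r was 0.924 (exact permutation p = 0.0103, n = 7). The 4 relations were chosen after seeing the data, so these p-values are a description only.

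Fragments on no annotated gene showed the opposite order. They made up 49.0 ± 2.05% of mapped fragments in the high libraries (SD, n = 5) and 52.25 ± 3.28% in the low libraries (SD, n = 4), with KO 3 highest at 56.66% and WT 4 lowest at 46.67%. The classes overlapped, since WT 1 stood at 48.74%. The difference within genotype was -3.61 points (exact permutation p = 0.0167, two-sided, adjusted p = 0.0601). Its correlation with the unmapped share was -0.638 (exact permutation p = 0.0641, rank correlation -0.6 with p = 0.0968), and -0.693 without KO 3 and WT 1 (exact permutation p = 0.0627, n = 7). The share of mapped fragments counted on 1 gene was 39.87 ± 2.02% in the high and 39.43 ± 3.26% in the low libraries, a difference within the spread. None of the 18 single values reached an adjusted p under 0.05, and the smallest was 0.0601. The plot of unmapped, multimapped and unannotated fragments orders the libraries by unmapped share.

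**Figure D1:**
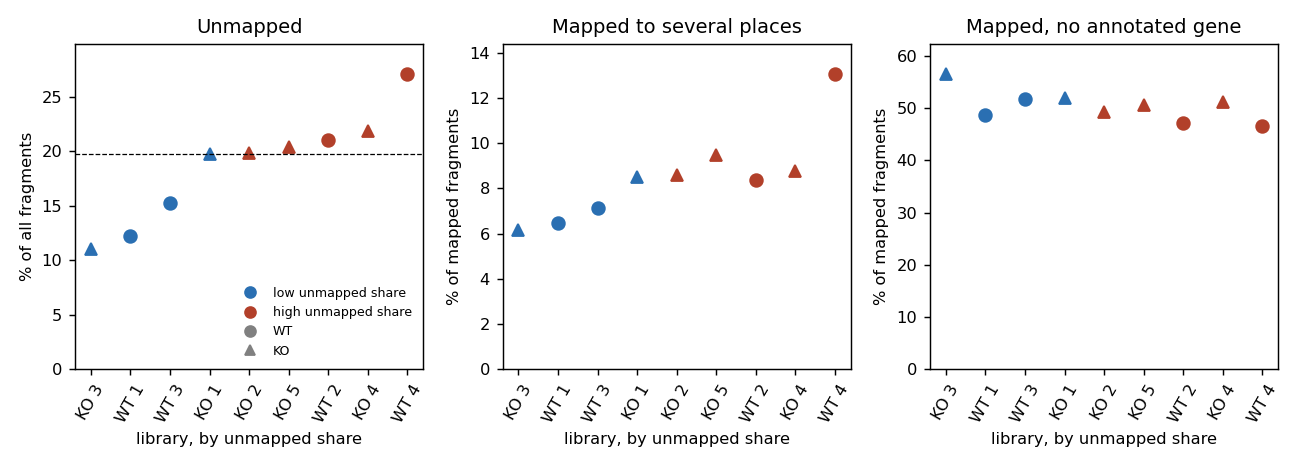
Share of unmapped fragments (left, percent of all fragments, with the threshold dashed), of fragments mapped to several places (middle) and of fragments on no annotated gene (right, both percent of mapped fragments) in each of the 9 libraries, 1 point per library. Libraries are in the order of their unmapped share: KO 1 and KO 2 lie next to each other at 19.7% and 19.81%, and WT 4 stands highest in the left and middle panels.

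Across genes, the classes were compared with edgeR's quasi-likelihood test with genotype as a second term. Of 14665 genes tested, 0 (0%) passed a Benjamini-Hochberg adjusted p under 0.05, the smallest adjusted p being 0.115. An unadjusted p under 0.05 was reached by 3630 genes (24.8%), of which 1781 (12.1%) were higher and 1849 (12.6%) lower in the high libraries. DESeq2 called 726 of 12670 genes (5.73%), 359 higher (2.83%) and 367 lower (2.9%), while limma-voom called 0, with 3529 genes at an unadjusted p under 0.05. Every high library lay above every low library for 610 genes (4.16%) and below for 529 (3.61%). Together these were 7.77% of the genes. The number of calls depended on where the threshold lay and on KO 1. Without KO 1, edgeR called 1608 genes, and with KO 1 counted as high it called 2287, while with KO 2 counted as low it called 0.

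When the unmapped share itself was fitted in place of the 2 classes, edgeR called 3071 genes (20.9%), 1564 rising (10.7%) and 1507 falling (10.3%) with the share. DESeq2 called 3335 and limma-voom 2970 in the same fit. The slopes are given per 7.52 percentage points, the distance between the class means, so that they share a scale with the class difference. These calls rested on the libraries with the lowest shares: 686 genes were called without WT 1 and 0 without KO 3, where 3552 still had an unadjusted p under 0.05. Without both, 0 were called and 1325 had an unadjusted p under 0.05. Below, a gene is said to have risen or fallen with the unmapped share where it passed this fit over all 9 libraries, and all other differences between the classes are values that did not pass edgeR's adjusted threshold.

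Whether the class difference itself differed between KO and WT was tested as an interaction. By edgeR 0 of 14665 genes (0%) passed, with 311 below an unadjusted p of 0.05, and by DESeq2 3 passed. The class difference within the 4 WT libraries alone and the 5 KO libraries alone called 0 genes each, with 1613 and 1355 genes at an unadjusted p under 0.05.

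Among the genes with the smallest p, Nol4l (nucleolar protein 4-like, ENSMUSG00000061411.12, GRCm38 chromosome 2, 153407462 to 153529971) stood at 40.7, 51.3, 43.9 and 33.8 CPM in the low libraries WT 1, WT 3, KO 1 and KO 3. In the high libraries WT 2, WT 4, KO 2, KO 4 and KO 5 it stood at 73.8, 82.1, 84.6, 97.7 and 72 CPM. The classes did not overlap, and the log2 difference of high minus low was 0.96 ± 0.15 (SE; edgeR adjusted p = 0.131). Leng1 (ENSMUSG00000078813.3, chromosome 7, 3660098 to 3665840) stood at 41 ± 5.43 CPM in the high and 23.5 ± 3.41 CPM in the low libraries (SD). Gys1, the muscle-type glycogen synthase, stood at 89.8 ± 6.13 against 59.8 ± 5.36 CPM. Disc1, a scaffold protein best known from neurons, stood at 12.9 ± 2.71 against 4.96 ± 1.85 CPM, a log2 difference of 1.37 ± 0.27 (SE). Sox10, a transcription factor of neural crest and of some mammary epithelial cells, stood at 455 ± 37 against 301 ± 30.4 CPM. Ager, the receptor for advanced glycation end products, stood at 6.34 ± 1.65 against 2.45 ± 0.572 CPM. The other 6 of the 12 genes named for being higher were Shf, Lrrc75b, Helz2, Nlrc5, Adcy7 and Lgals9. All 12 had an edgeR adjusted p of 0.131 and were called higher by DESeq2, as were 2.83% of all genes. None overlapped between the classes and all 12 rose with the unmapped share, against 4.16% and 10.7% of all genes. These 12 were selected by p in the same comparison, so these counts follow in large part from that selection.

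Among the lower genes, Col8a1 (a short-chain collagen, ENSMUSG00000068196.5, chromosome 16, 57624258 to 57754737) had the smallest p of all. It stood at 56.3, 32.1, 48.7 and 45.8 CPM in the low libraries WT 1, WT 3, KO 1 and KO 3. The high libraries WT 2, WT 4, KO 2, KO 4 and KO 5 stood at 17.6, 15.9, 14.8, 17.7 and 23.6 CPM. The classes did not overlap (log2 difference -1.36 ± 0.18, SE, edgeR adjusted p = 0.115). Slc6a15, an amino acid transporter, stood at 7.1 ± 1.73 CPM in the high and 23.7 ± 13.2 CPM in the low libraries, and Tbx15, a developmental transcription factor, at 44.8 ± 13.5 against 110 ± 30.8 CPM. Scgb2b26, a secretoglobin, was uneven within the low class, with 22.1 and 26.4 CPM in WT 1 and WT 3 but 5.32 and 3.28 CPM in KO 1 and KO 3, against 1.2 to 2.93 CPM in the high libraries. Cenpk, a kinetochore subunit, and Pbk, a mitotic kinase, stood at 2.41 ± 0.554 against 6.46 ± 1.62 CPM and 5.11 ± 0.458 against 9.6 ± 2.04 CPM. Of the 12 genes selected for being lower, Rerg and Cd1d1 did not pass the fit on the unmapped share. The other 10 fell with it, where 10.3% of all genes did, among them Fam135a, Atad1 and Rbm4. DESeq2 called all 12 lower between the classes, as it did 2.9% of all genes. These counts too follow in large part from the selection by p.

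The named genes differed in base composition. The 12 higher genes had transcripts of 51.8% (Lgals9) to 64.4% GC (Shf), and the 12 lower genes 37.1% (Cenpk) to 48.2% GC (Tbx15), around a median of 49.1% over all genes tested. Over 14647 genes with a transcript in the annotation (99.9%), the median log2 difference of high minus low was -0.29 in the quintile of genes with the lowest GC (27.6% to 43.2%). It was -0.11, 0.01 and 0.14 in the next 3 quintiles and 0.3 in the quintile with the highest GC (55.1% to 78.3%). In the lowest quintile 22 genes rose and 880 fell with the unmapped share, and in the highest quintile 915 rose and 31 fell. Across genes the log2 difference and the GC content had a Pearson correlation of 0.5 and a rank correlation of 0.541, given as a description since genes are not independent replicates.

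The same order of GC quintiles was present within each genotype and among protein-coding genes. In the WT libraries alone the lowest and highest quintiles had medians of -0.31 and 0.34, and in the KO libraries alone -0.26 and 0.27. Without WT 1 and KO 3 they were -0.12 and 0.14. Restricted to protein-coding genes and their own quintiles, the medians ran from -0.22 to 0.31. Exon length showed no such order, its quintiles having medians of 0, 0.02, 0.03, 0.01 and -0.05 from the shortest to the longest.

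A GC tilt was computed for each library as the median level of the highest minus that of the lowest GC quintile, each gene taken against its mean over the 9 libraries. It was -0.73 in KO 3, -0.51 in WT 1, -0.1 in WT 3, 0.09 in KO 1, 0.11 in KO 2, 0.16 in KO 5, 0.29 in WT 2, 0.3 in KO 4 and 0.38 in WT 4. This is the order of the unmapped shares themselves, so the rank correlation was 1 (exact permutation p = 5.51e-06, the smallest possible). Its adjusted p was 2.2e-05 over the 4 relations tested. Pearson's r was 0.942 (exact permutation p = 2.76e-06, also the smallest possible, adjusted p = 1.1e-05). Without KO 3 and WT 1 the correlation was 0.915 (exact permutation p = 0.00198, n = 7). KO 1 and KO 2 were as close in tilt as in unmapped share, and KO 1, though in the low class, had a positive tilt like the high libraries. These 4 relations were chosen after seeing the data, and the tilt was defined after the GC order had been seen in the same libraries. Their permutations ran over the libraries without regard to genotype. Their p-values are therefore a description only. Each library was also corrected for a smooth trend in GC content and exon length, fitted to these same counts. The 5 GC quintiles then had medians of 0.01 to 0.02, which follows from how the correction is built. With it, the fit on the unmapped share called 322 genes in place of 3071, 162 rising and 160 falling. The part of GC content in the calls was not tested.

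**Figure D2:**
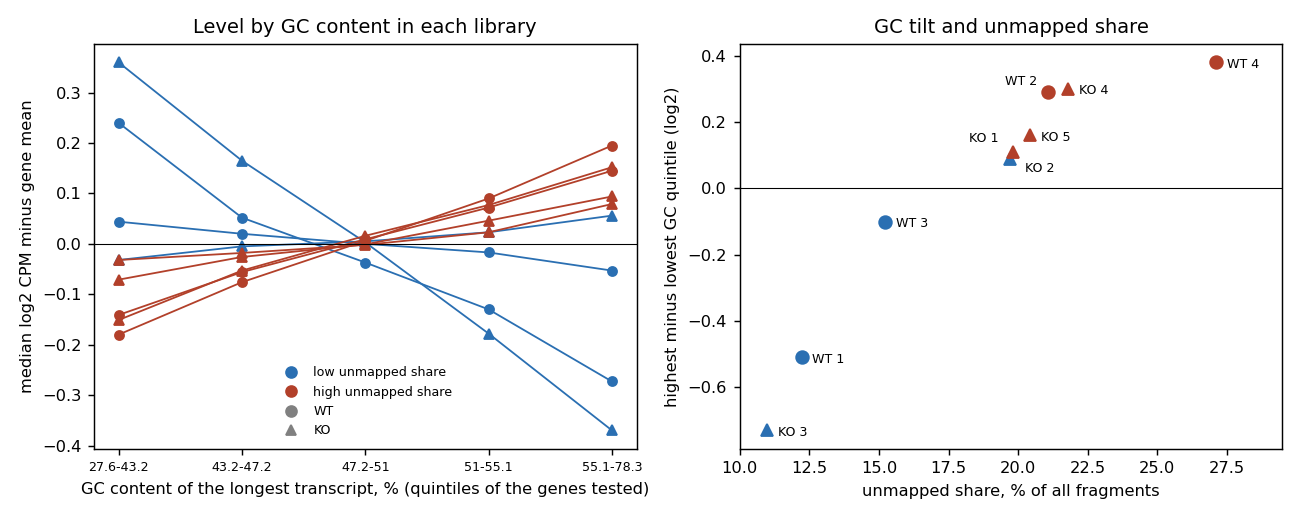
Left, median log2 CPM minus the gene mean (vertical axis) for quintiles of genes by transcript GC content (horizontal axis, percent), 1 line per library. Right, the GC tilt (highest minus lowest quintile, log2) against the unmapped share in percent, 1 point per library: from KO 3 at -0.73 to WT 4 at 0.38 the 9 libraries keep the same order on both axes.

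RNA classes differed together with the unmapped share. Messenger RNAs of the mitochondrial genome, which encode subunits of the respiratory chain, took 3.632%, 5.015%, 6.63% and 4.193% of gene counts in the low libraries WT 1, WT 3, KO 1 and KO 3. In the high libraries WT 2, WT 4, KO 2, KO 4 and KO 5 they took 6.335%, 13.36%, 6.478%, 8.632% and 9.715%. The classes overlapped only through KO 1, and WT 4 stood far above the rest (difference within genotype 4.19 points, exact permutation p = 0.05, two-sided, adjusted p = 0.112). Without WT 4 that difference was 2.44 points. Of 13 such mRNAs 7 were tested, and the other 6 had at most 5 counts over all libraries. The levels of those 6 were not read, and where their fragments went was not tested. All 7 rose with the unmapped share, against 10.7% of all genes, and DESeq2 called all 7 between the classes. mt-Nd6 (ENSMUSG00000064368.1, mitochondrial genome, 13552 to 14070), encoded on the other strand from the rest, stood at 579, 694, 875 and 403 CPM in the low libraries WT 1, WT 3, KO 1 and KO 3. It stood at 1050, 2360, 1000, 1140 and 1410 CPM in the high libraries WT 2, WT 4, KO 2, KO 4 and KO 5, all above the low ones. mt-Nd1 stood at 13600 ± 4390 against 6900 ± 2250 CPM, mt-Nd4 at 7700 ± 2790 against 3960 ± 943 CPM and mt-Nd5 at 9000 ± 3120 against 4570 ± 1160 CPM.

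The median log2 difference of the 7 mitochondrial mRNAs was 0.98, against 0 over all genes tested. It was 0.65 without WT 4, 0.72 without WT 1 and KO 3, 1.35 in WT alone and 0.67 in KO alone. These transcripts are low in GC, with a median of 37.1%, so they ran against the order of the GC quintiles, and their median was 1.4 after the GC and length correction. The mitochondrial ribosomal RNA mt-Rnr1 stood at 543 ± 184 CPM in the high and 333 ± 126 CPM in the low libraries and rose with the unmapped share. The other one, mt-Rnr2, stood at 1020 ± 514 against 722 ± 219 CPM and did not pass. Both are what remained after ribosomal RNA was depleted. The nuclear genes for respiratory chain subunits did not share this direction: of 50 tested, 16 were higher and 34 lower, with a median log2 difference of -0.12 (-0.06 without WT 1). With the share 0 of them rose and 5 fell, the latter near the 10.3% of all genes.

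Transcripts annotated inside introns were lower. Those listed as TEC, single-exon models that await experimental proof and mostly lie within larger genes, took 0.7768%, 0.7148%, 0.7181% and 1.057% of gene counts in the low libraries WT 1, WT 3, KO 1 and KO 3. The high libraries WT 2, WT 4, KO 2, KO 4 and KO 5 stood at 0.5041%, 0.5194%, 0.6321%, 0.5826% and 0.62%, all below the low ones. The difference within genotype was -0.255 points, or -0.17 without KO 3 (exact permutation p = 0.0167, two-sided, adjusted p = 0.0601), and the correlation with the unmapped share was -0.859 (exact permutation p = 0.00172, adjusted p = 0.00229, rank correlation -0.933 with p = 0.00075), or -0.755 without KO 3 and WT 1 (exact permutation p = 0.0375, n = 7). Of 816 TEC models tested, 710 were lower in the high libraries, 206 fell with the share (background 10.3%) and 7 rose (background 10.7%). Their median log2 difference was -0.5 for the 676 that lie within a protein-coding gene on the same strand and -0.28 for the other 140. Sense intronic transcripts took 0.1031 ± 0.0101% of gene counts in the high and 0.1391 ± 0.0285% in the low libraries, without overlap, and 111 of 141 were lower.

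Base composition moved with these transcripts too. TEC models had a median GC of 41.7%, and their median log2 difference was -0.48 as deposited and -0.17 after the GC and length correction. In the lowest GC quintile the 494 TEC models had a median of -0.62 where the 2136 protein-coding genes had -0.23, and in the highest quintile 10 TEC models had 0.36 and 2766 protein-coding genes 0.29. The fragments on no annotated gene, where most intronic fragments of protein-coding genes fall, were lower in the high libraries as given above. The part of either in the TEC result was not tested. No source states whether strand was used in counting, and fragments of an unspliced host transcript cannot be told apart from those of a TEC model on the same strand.

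Small nucleolar RNAs, which guide modification of ribosomal and spliceosomal RNAs and mostly lie in introns of host genes, went the other way. Of 62 snoRNAs tested, 52 were higher in the high libraries (median log2 difference 0.46), where 50.2% of all genes were. With the share 18 of the 62 rose (background 10.7%) and 0 fell (background 10.3%). Their relatives in Cajal bodies, the scaRNAs, were higher in 9 of 9 (median 0.67), and 7 of the 9 rose with the share (background 10.7%). Snora73b stood at 314, 351, 599 and 394 CPM in WT 1, WT 3, KO 1 and KO 3 and at 575, 762, 812, 811 and 480 CPM in WT 2, WT 4, KO 2, KO 4 and KO 5. Scarna2 stood at 1180 ± 198 against 712 ± 302 CPM. KO 1 overlapped the high libraries at both. Together the snoRNAs and scaRNAs took 0.3758 ± 0.0594% of gene counts in the high and 0.2685 ± 0.0843% in the low libraries, a difference that did not pass (exact permutation p = 0.1, two-sided, adjusted p = 0.18). Cytosolic ribosomal protein mRNAs, by contrast, had a median log2 difference of -0.04 over 78 genes. Of these 2 rose and 2 fell with the share, below the 10.7% and 10.3% of all genes.

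**Figure D3:**
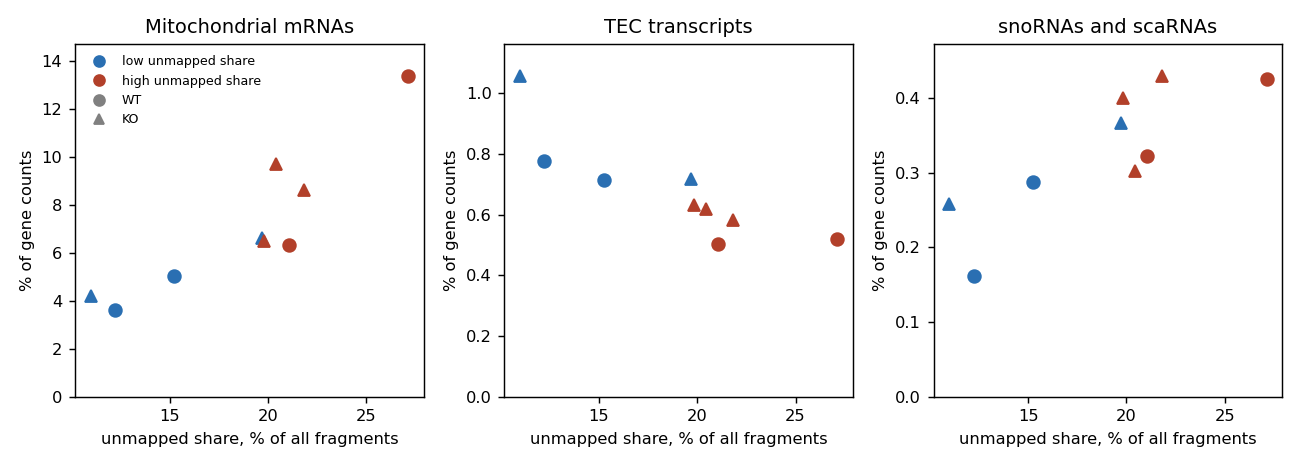
Percent of gene counts (vertical axes, from 0) on mitochondrial mRNAs (left), TEC transcripts (middle) and snoRNAs with scaRNAs (right) against the unmapped share in percent of all fragments, 1 point per library. Mitochondrial mRNAs run from 3.632% in WT 1 to 13.36% in WT 4, and in the middle panel the 5 high libraries all lie below the 4 low ones.

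Interferon-stimulated genes were higher in the high libraries. Interferons signal through the JAK kinases and transcription factors such as STAT2 and IRF9 to induce antiviral proteins, and in tumors such genes are expressed by both cancer and immune cells. Of 30 tested, 29 were higher, where 50.2% of all genes were, 18 had an unadjusted p under 0.05 in that direction (background 12.1%), 9 were called higher by DESeq2 (2.83%) and 10 rose with the share (10.7%). None passed edgeR's class test. Their median log2 difference was 0.48, 0.59 in WT alone, 0.46 in KO alone, 0.41 without WT 1 and KO 3, and 0.52 after the GC and length correction. Leaving out 1 library in turn gave 0.35 (without WT 1) to 0.6 (without WT 3).

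Along the pathway, the DNA and RNA sensor Zbp1 stood at 35.8, 73.1, 67.4 and 74.7 CPM in WT 1, WT 3, KO 1 and KO 3. It stood at 89, 102, 97.4, 106 and 128 CPM in WT 2, WT 4, KO 2, KO 4 and KO 5, all above the low libraries. Stat2, which carries the type I signal to the nucleus, stood at 94.9, 168, 197 and 148 CPM in the same low libraries and at 218, 282, 280, 229 and 297 CPM in the same high libraries (log2 difference 0.77 ± 0.19, SE, edgeR adjusted p = 0.131). Irf7, the transcription factor that amplifies interferon production, stood at 100, 140, 139 and 136 CPM against 183, 274, 219, 160 and 256 CPM. WT 1 was the lowest library for all 3 genes, and no high library overlapped a low one. Oas3, an enzyme that activates RNase L upon binding double-stranded RNA, stood at 33.8 ± 9.39 against 18.8 ± 2.59 CPM. All 4 rose with the unmapped share.

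Related genes outside that list were among the 12 higher genes named above. Nlrc5, the transactivator of MHC class I genes, stood at 63.3, 125, 144 and 137 CPM in WT 1, WT 3, KO 1 and KO 3 and at 182, 243, 287, 212 and 300 CPM in WT 2, WT 4, KO 2, KO 4 and KO 5 (log2 difference 1.03 ± 0.2, SE, edgeR adjusted p = 0.131). Helz2, an interferon-induced helicase, stood at 257 ± 29.9 against 160 ± 22.4 CPM, and Lgals9, encoding galectin-9, at 114 ± 15.6 against 69 ± 12.3 CPM.

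Most markers of macrophages, of MHC class II presentation and of T and NK cells were higher too, but neither edgeR nor DESeq2 called a member of these 3 lists between the classes. Of 20 macrophage markers 18 were higher (median log2 difference 0.53, or 0.29 without KO 5). Of them 3 were higher with an unadjusted p under 0.05, near the 12.1% of all genes, and 0 rose with the share. Csf1r, the receptor that macrophages need for survival, stood at 75.1, 38.9, 34.5 and 23.2 CPM in WT 1, WT 3, KO 1 and KO 3 and at 52.7, 81.2, 49.5, 41.9 and 64.8 CPM in WT 2, WT 4, KO 2, KO 4 and KO 5. Only WT 4 stood above WT 1, and the classes overlapped. C1qb and Tyrobp, a complement subunit and a signaling adaptor of myeloid cells, stood at 58.4 ± 22.1 against 42.6 ± 18.7 CPM and at 19.8 ± 8.66 against 13.7 ± 4.9 CPM. The summed level of the macrophage list was 456 to 1700 CPM in the low and 707 to 1890 CPM in the high libraries. Fewer cells of a type and less RNA per cell cannot be told apart in bulk RNA.

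All 7 tested genes of MHC class II presentation were higher, with a median of 0.58. Of them 4 had an unadjusted p under 0.05 (background 12.1%), and 0 rose with the share (background 10.7%). H2-Eb1, a class II beta chain, stood at 125 ± 63.9 against 79.6 ± 40 CPM, and Cd74, the invariant chain, at 364 ± 168 against 242 ± 144 CPM, both within the spread. Of 20 T and NK cell markers only 7 had enough counts to be tested, 6 of them higher (median 1.01, 0.32 in WT alone and 1.42 in KO alone). Lck, the kinase of the T cell receptor, stood at 4.06 ± 1.43 against 2.03 ± 1.07 CPM and Cd8a at 2.81 ± 0.963 against 1.42 ± 0.839 CPM, low in either class. Of 15 B and plasma cell markers only Ighm was tested, at 1.64 to 6.28 CPM in the low and 4.73 to 12.8 CPM in the high libraries, and it rose with the share. Among red cell genes, Hbb-bs and Hba-a1 rose with the share, and Hbb-bs stood at 72.5 ± 38.5 against 38.6 ± 19.2 CPM. The summed T and NK cell markers were 8.54 to 24.7 CPM in the low and 16.8 to 45.5 CPM in the high libraries. The part of these cell markers in the interferon result was not tested.

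**Figure D4:**
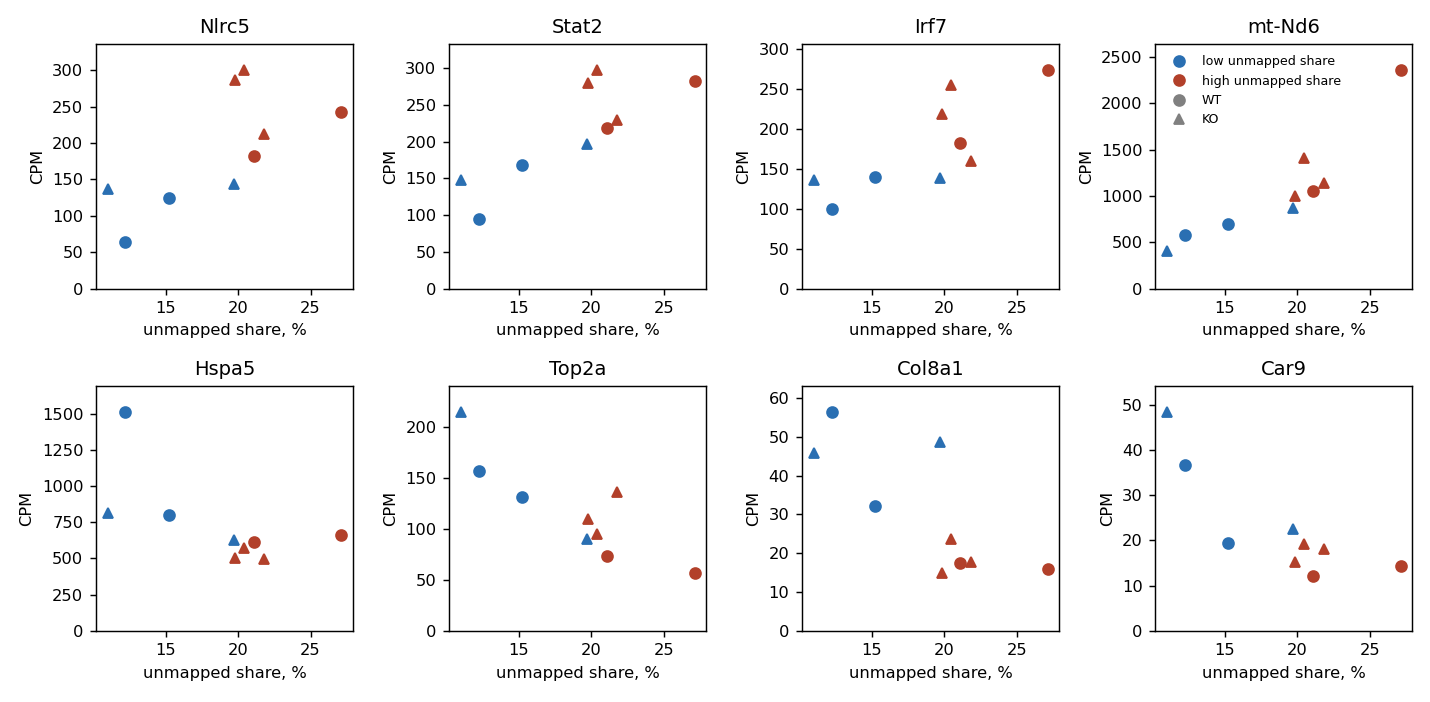
CPM (vertical axes, from 0) of 8 genes against the unmapped share in percent of all fragments, 1 point per library. The 5 high libraries lie above the 4 low ones for Nlrc5, Stat2, Irf7 and mt-Nd6 and below them for Col8a1 and Car9, while Hspa5 and Top2a overlap between the classes and WT 1 stands highest for Hspa5.

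Genes of protein folding in the endoplasmic reticulum were lower. In the unfolded protein response, sensors in that membrane induce chaperones and disulfide isomerases when unfolded proteins accumulate. Of 21 tested, 18 were lower and 3 higher, 10 with an unadjusted p under 0.05 (background 12.6%), 7 were called lower by DESeq2 (2.9%) and 9 fell with the share (10.3%). Hspa5, the chaperone BiP, stood at 1510, 801, 628 and 815 CPM in WT 1, WT 3, KO 1 and KO 3 and at 611, 662, 505, 497 and 572 CPM in WT 2, WT 4, KO 2, KO 4 and KO 5. WT 1 stood far above every other library, and KO 1 overlapped the high class. Manf, a secreted factor of the same compartment, stood at 133, 69.6, 64 and 66 CPM in the same low and at 63.1, 54.8, 44.2, 43 and 47.9 CPM in the same high libraries, without overlap. The disulfide isomerases Pdia6 and Pdia4 stood at 171 ± 20.5 against 274 ± 100 CPM and at 156 ± 17.4 against 248 ± 104 CPM. All 4 fell with the share.

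The list's median log2 difference was -0.39, -0.57 in WT alone and -0.23 in KO alone. It was -0.18 without WT 1 alone and also without WT 1 and KO 3, and in the fit on the unmapped share without these 2 libraries it was -0.05. The members that were higher were Atf4, Ddit3 and Trib3, transcription factors and a pseudokinase (log2 differences 0.22, 0.16 and 0.44). All other members tested, Asns among them, were lower. The higher members were named after their values were seen. Heat shock response genes, which HSF1 induces on protein damage in the cytosol, were divided, 11 of 21 higher and 10 lower with a median of 0.05.

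Genes of the dividing cell were lower as well. Of 28 genes of mitosis and the G2 phase 27 were lower, 9 with an unadjusted p under 0.05 (background 12.6%), 2 called by DESeq2 (2.9%), and 11 fell with the share (10.3%) while 0 rose. Ccna2, the cyclin that drives S phase and entry into mitosis, stood at 35.8, 28.6, 19.9 and 30.5 CPM in WT 1, WT 3, KO 1 and KO 3 and at 10.2, 12.5, 14.5, 19.1 and 22.6 CPM in WT 2, WT 4, KO 2, KO 4 and KO 5. Only KO 1 among the low libraries overlapped the high ones. Top2a, the topoisomerase that untangles replicated chromosomes, stood at 157, 131, 89.6 and 214 CPM against 73.2, 56.6, 110, 136 and 95.1 CPM in the same order of libraries. Bub1, a kinase of the spindle checkpoint, stood at 9.29 ± 3.76 against 16.7 ± 5.17 CPM, and Hmmr, a spindle protein, at 18.7 ± 4.99 against 29.6 ± 9.27 CPM. All 4 fell with the share.

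The median log2 difference of the mitotic genes was -0.46, with -0.85 in WT alone and -0.16 in KO alone. It was -0.26 without WT 1 and KO 3 and -0.3 after the GC and length correction. Whether the medians of the 2 genotypes differ was not tested. Their transcripts had a median GC of 46.4%. Of 28 genes of DNA replication 23 were lower (median -0.21, -0.47 in WT alone and 0.02 in KO alone), and 6 fell with the share (background 10.3%). Without KO 1 that median was -0.35. Rrm1, a subunit of ribonucleotide reductase, fell with it, at 46.2 ± 7.02 against 62.8 ± 14 CPM. Mcm6, a subunit of the replicative helicase, stood at 42.4 ± 6.44 against 56.2 ± 7.58 CPM and did not pass.

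Histone genes whose transcripts are made in S phase and end in a stem-loop in place of a poly(A) tail were lower for 49 of 50 tested, 16 of them with an unadjusted p under 0.05 (background 12.6%). DESeq2 called 1, no more than its 2.9% of all genes, and 9 fell with the share (10.3%). Hist1h2ai stood at 10.2, 4.99, 3.94 and 4.6 CPM in WT 1, WT 3, KO 1 and KO 3 and at 1.88, 1.57, 3.1, 2.17 and 3.25 CPM in WT 2, WT 4, KO 2, KO 4 and KO 5, without overlap and with WT 1 far above the rest. Hist1h3b fell with the share, at 4.82 ± 1.22 against 9.37 ± 3.24 CPM, and Hist1h4a, at 6.64 ± 1.76 against 11.7 ± 2.5 CPM, did not pass. These genes are rich in GC, with a median of 57.8%, so like the mitochondrial mRNAs they ran against the order of the GC quintiles. Their median log2 difference was -0.53, -0.3 without WT 1, -0.3 without WT 1 and KO 3, and -0.69 after the GC and length correction. Histone genes have near-identical copies, so the division of fragments among them is uncertain.

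Immediate early genes, which cells induce within minutes of a stimulus and also during tissue dissociation, were higher. Of 26 tested, 24 were higher (median log2 difference 0.43), 11 with an unadjusted p under 0.05 (background 12.1%) and 4 called by DESeq2 (2.83%). With the share 4 of the 26 rose, near the 10.7% of all genes. Jun stood at 151, 153, 153 and 74.1 CPM in WT 1, WT 3, KO 1 and KO 3 and at 291, 210, 137, 216 and 214 CPM in WT 2, WT 4, KO 2, KO 4 and KO 5. The classes overlapped through KO 2, and KO 3 stood lowest. Ier5 stood at 73.1 ± 13.5 against 47.7 ± 12.2 CPM, without overlap, and Jund at 223 ± 57.1 against 145 ± 48.8 CPM, and both rose with the share, as did Jun. Zfp36, which destabilizes cytokine mRNAs, stood at 71.9 ± 11.3 against 50.3 ± 12.4 CPM and did not pass. The list's median GC was 54.2%, and its median log2 difference was 0.26 after the GC and length correction and 0.4 without WT 1 and KO 3.

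Matrix and stromal genes did not form one group. Of 29 matrix glycoproteins and proteoglycans tested 23 were lower (median -0.38), and 3 of the 29 fell with the share, near the 10.3% of all genes. The median was -0.08 without WT 1 and 0 without WT 1 and KO 3. Nid2, a basement membrane nidogen, stood at 17.4, 4.65, 7.29 and 11.5 CPM in WT 1, WT 3, KO 1 and KO 3 and at 2.72, 3.58, 3.75, 3.97 and 2.39 CPM in WT 2, WT 4, KO 2, KO 4 and KO 5, without overlap. Ccn2, a matricellular protein induced by stretch and TGF-beta, fell with the share, at 36.1 ± 9.6 against 63.9 ± 26.4 CPM. The 22 collagens had a median of 0.1 (-0.04 without KO 4, 0.24 without KO 5), 13 higher and 9 lower. Col12a1, a fibril-associated collagen, fell with the share at 89.7 ± 16.7 against 163 ± 69.9 CPM, while Col27a1, a fibrillar collagen, rose with it at 44.8 ± 18.6 against 20.6 ± 8.26 CPM. Of 14 endothelial markers 12 were lower (median -0.4), yet the median was -0.15 without WT 1 and 0.09 without WT 1 and KO 3. Pecam1, an adhesion molecule of endothelium, stood at 25.6 CPM in WT 1 and at 3.93 to 11 CPM in the other 8 libraries. The 12 fibroblast markers had a median of -0.16 (-0.03 without WT 1), and 1 of the 12 rose with the share, where 10.7% of all genes did.

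Epithelial genes showed no common direction. Of 21 luminal markers 13 were higher and 8 lower (median 0.13, or -0.12 without WT 2). Epcam, the epithelial adhesion molecule, fell with the share, with WT 1 at 1470 CPM and the other 8 libraries at 628 to 984 CPM. Gata3, the luminal transcription factor, stood at 418 ± 88.2 against 302 ± 46.4 CPM and did not pass. The 12 basal and myoepithelial markers were divided 6 to 6 (median -0.04), among them Lgr5 at 3.76 ± 2.68 against 11.3 ± 6.06 CPM. Milk protein genes depended on single libraries, with a median of 0.18 that became -0.53 without WT 4 and 0.64 without WT 2. Csn3, kappa-casein, fell with the share, at 10400, 4640, 3740 and 7670 CPM in WT 1, WT 3, KO 1 and KO 3 against 2930, 3980, 2170, 3230 and 3590 CPM in WT 2, WT 4, KO 2, KO 4 and KO 5. The 8 adipocyte genes tested were all higher (median 0.53, 0.31 without WT 1 and KO 3), and of them Pnpla2, the fat cell triglyceride lipase, rose with the share at 94.5 ± 9.68 against 68 ± 13.8 CPM. Lcn2, listed as a neutrophil gene and also made by mammary tumor epithelium, fell with it, at 1740 ± 169 against 2910 ± 1010 CPM.

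Hypoxia and glycolysis genes had a median of -0.02, with a few members far from it. Of 28 entries tested, which cover 27 gene symbols, 12 were higher and 16 lower. With the share 1 rose and 3 fell, the latter near the 10.3% of all genes. Car9, the carbonic anhydrase that acidifies hypoxic tumor tissue, stood at 36.7, 19.4, 22.5 and 48.3 CPM in WT 1, WT 3, KO 1 and KO 3. It stood at 12.1, 14.3, 15.2, 18.2 and 19.3 CPM in WT 2, WT 4, KO 2, KO 4 and KO 5, below every low library by a narrow margin. Adm, encoding adrenomedullin, stood at 15.3 CPM in KO 3 and at 0.627 to 5.3 CPM elsewhere. Car9 and Adm fell with the share, as did Ero1l. Hk1, of the same list, rose with it, at 267 ± 39.4 CPM in the high against 214 ± 36.5 CPM in the low libraries.

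Genes of nuclear RNA processing were mixed. The 30 splicing factors had a median of -0.01, with 4 that rose and 5 that fell with the share, near the 10.7% and 10.3% of all genes. U2af2, which recognizes the 3' splice site, stood at 97, 156, 195 and 130 CPM in WT 1, WT 3, KO 1 and KO 3 and at 204, 235, 222, 238 and 217 CPM in WT 2, WT 4, KO 2, KO 4 and KO 5, without overlap. Srsf4 and Snrnp70 also rose with the share, at 83 ± 6.24 against 60.6 ± 10.2 CPM and 995 ± 64.1 against 644 ± 213 CPM, and all 3 transcripts hold 53% GC or more. Among nuclear long noncoding RNAs, Tug1, of 37.9% GC, fell with the share from 288, 169, 154 and 238 CPM in WT 1, WT 3, KO 1 and KO 3 to 129, 128, 145, 120 and 144 CPM in WT 2, WT 4, KO 2, KO 4 and KO 5. Xist, which coats the inactive X chromosome, stood at 4280 ± 356 against 5440 ± 759 CPM, without overlap, and did not pass. The 11 nuclear long noncoding RNAs tested had a median of -0.34, -0.13 without WT 2, and -0.08 after the GC and length correction.

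The remaining lists had medians nearer to 0 or few genes with enough counts. Medians were -0.06 for 31 proteasome subunits, 0 for 26 genes of cholesterol and fatty acid synthesis, 0.07 for 18 p53 targets and 0.02 for 14 inflammatory chemokines and cytokines. The 30 lysosomal genes had a median of -0.21, which became 0.02 without WT 1. Among cell markers, medians were -0.03 for 12 genes of pericytes and smooth muscle, -0.02 for 16 of skeletal muscle and 0.04 for 8 of Schwann cells. Only 4 neutrophil, 3 dendritic cell and 3 keratinocyte markers could be tested, with medians of 0.11, 0.64 and 0.5, and no direction is drawn from so few.

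**Figure D5:**
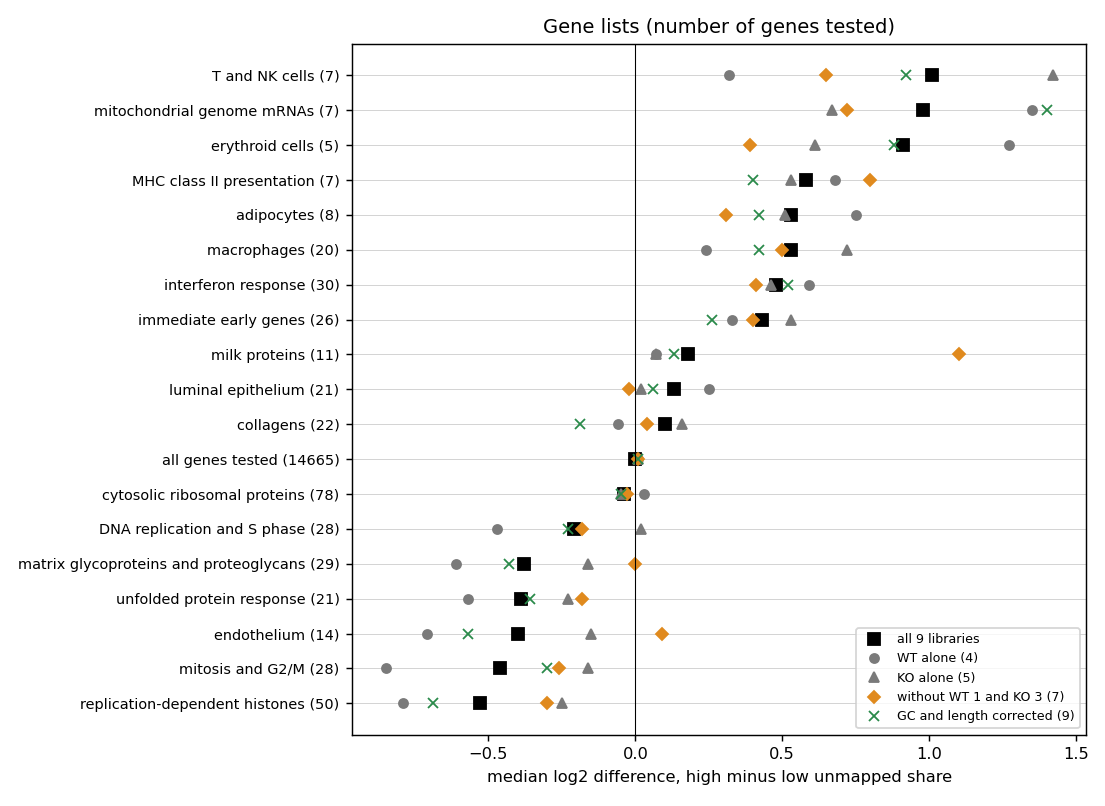
Median log2 difference of high minus low unmapped share (horizontal axis) for 18 gene lists and all genes tested (vertical axis, number of genes in brackets), over all 9 libraries and over 4 alternatives. Interferon response genes stay between 0.41 and 0.59 in the 5 sets of values shown, while matrix glycoproteins and endothelium move to 0 and 0.09 without WT 1 and KO 3.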

How the data were processed

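Total RNA of dissociated tumors was sequenced after depletion of ribosomal RNA, as stranded paired ends, per the labels' protocols. Trimmomatic 0.36, FastQC 0.11.5, STAR 2.5.4a and build GRCm38 are named in the submitters' processing notes. For the annotation release and strand setting of the counting, the sources used here give nothing. The authors deposited unnormalized counts per gene and library, with 4 entries that name no gene (unmapped, multimapped, no feature, ambiguous). These took no part in library sizes or gene tests, and they alone gave the fragment shares; the unmapped ones took 10.99% to 27.13% of a library's fragments.

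Genes were tested with edgeR 4.0.16 (R 4.3.3; TMM factors, filterByExpr on the class) with genotype and class as terms, two-sided, with Benjamini-Hochberg adjustment over 14665 genes, of which those with an adjusted p under 0.05 were called. The SE was the log2 difference over the square root of F. DESeq2 1.42.0, limma-voom (limma 3.58.1) and other settings were alternatives. In simulated counts with 200 genes changed 2-fold between the classes, edgeR recovered 145 with 7 false calls. Those counts were drawn for each gene independently from the dispersion trend, with no genotype difference and no GC trend. That recovery therefore does not say how many such changes would be found in these libraries. Of 55401 identifiers, 55141 matched a symbol in GENCODE's GRCm38 annotation, whose longest transcript per gene gave GC content. The GC and length correction was a loess offset per library (span 0.3).

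Single values were permuted exactly within genotype. Genes were named as the 12 with the smallest p per direction (average log2 CPM of at least 1, no predicted genes or pseudogenes) and up to 4 per list; 1 gene so selected is not reported here. The classes, lists and tests were chosen with earlier results of these data known.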

Additional observations from a re-analysis of the deposited data

Results flagged for a closer look

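Among 198 groups looked at, each being the 5 high or the 4 low libraries for 1 single value or named gene, 11 held a library that lay far from the others of its class, or 5.56%; chance flags about 1 in 20 such groups. None of the named genes passed edgeR's interaction of class and genotype. With 2 or 3 libraries of a genotype in each class, that test cannot show that the class effects were equal.

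In 4 of the 11 the library was WT 4 among the high libraries. WT 4 had 13.1% of mapped fragments at several places where the other high libraries had 8.35% to 9.49%, and a TMM factor of 0.885 where the others had 0.989 to 1.01. It read mt-Nd1 at 21100 CPM, the others 10200 to 13300, and Rrm1 at 34 CPM, the others 47 to 52. WT 4 also had the highest unmapped share of the series.

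WT 1 was the outlying low library in 3 cases. Its Manf level of 133 CPM stood above 64 to 69.6 CPM in the other low libraries, its Hist1h2ai level of 10.2 CPM above 3.94 to 4.99 CPM, and its Irf7 level of 100 CPM below 136 to 140 CPM. KO 3 was outlying at Jun, with 74.1 CPM against 151 to 153 CPM, and at Pbk, with 12.6 CPM against 8.27 to 8.84 CPM. WT 2 had 14300000 fragments where the other high libraries had about 18000000 to 19100000. WT 2 also read Krt6a, a keratin of stressed and proliferating epithelium, at 80.5 CPM, against 0.671 to 14.5 CPM in the other high libraries.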

How the results depend on the processing

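Of the alternatives, these moved the count of 0 genes called between the classes: DESeq2 (726), no count filter (1894), KO 1 counted as high (2287), the unmapped share fitted as a number (3071) and leaving out 1 library, which gave 0 to 1608 (1608 without KO 1, 2 without WT 3). Without a filter 29228 genes were tested and edgeR's prior degrees of freedom were infinite in place of 4.85. The other alternatives gave 0, among them age as a further term, either genotype alone, an adjusted p under 0.1, KO 1 and KO 2 left out, the GC and length correction and, chosen after seeing the data, WT 1 and KO 3 left out. The fit per unmapped share called 3071 genes, and alternatives to it chosen after seeing the data called, each in its own fit, 0 without WT 1 and KO 3, 322 with the GC and length correction, and 0 to 3387 with 1 library left out (0 without KO 3, 686 without WT 1). For the interaction DESeq2 called 3 genes and edgeR 0 in all 9 fits without 1 library. The cause of these moves was not tested, and fits with fewer samples hold less information.

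The class could not be fitted with the sample number as a block, because the WT and KO libraries of all 4 shared numbers fall in the same class. With the replicate block, the unmapped share called 0 genes. Same-numbered libraries correlated at -0.02, 0.38, 0.11 and 0.38, and since they were not all above 0.1 the numbers were not taken to pair the tumors.

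Among single values, direction changed for fragments counted on genes (211000, but -64500 without KO 1 and KO 2 and -114000 to 536000 with 1 library left out), for the percent counted on 1 gene (0.618, with -0.492 to 1.73) and for lincRNAs (-0.0375 percent of gene counts, 0.00797 when permuted over all libraries and -0.393 to 0.318 with 1 library left out). Of 1984 values of 80 named genes under alternatives, 1983 kept their direction. Pecam1 was 0.07 without WT 1 and KO 3. Depth limits genes near the floor of 0.482 to 0.68 CPM, and 9 libraries with 2 near the threshold limit every class comparison.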
